A study of Mus musculus with 14 samples.

Results

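Integrins and laminins are the receptors and one of the main ligand families of cell adhesion to the basement membrane, and the genes for their subunits were followed here in fibroblasts and neurospheres with and without H3f3a. Members were all genes whose GENCODE M21 symbol is that of an integrin alpha or beta subunit or of a laminin alpha, beta or gamma chain. This gave 36 of 35449 genes with counts summed per gene: 17 integrin alpha, 8 integrin beta, 5 laminin alpha, 3 laminin beta and 3 laminin gamma genes. Measured levels played no part in the symbol rule. The cells were primary lines from mouse embryos at E13.5: neurospheres, which are floating cultures of neural stem and precursor cells started from heads, and embryonic fibroblasts (MEFs) from the body without head and internal organs. There were 3 KO and 3 WT neurosphere lines and 5 KO and 3 WT MEF lines, each an independent untreated line with 1 library. KO lines carried a targeted allele of H3f3a, called knockout-first in the series title, and WT lines did not. H3f3a encodes the replacement histone H3.3, which a second gene, H3f3b, also encodes. Since neurospheres were floating cultures from heads and MEFs came from bodies, cell type, form of culture and body region cannot be told apart. The labels give no strain or sex of the lines and describe the allele no further.

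An integrin is a heterodimer of 1 alpha and 1 beta chain that spans the membrane, binds matrix or cell-surface ligands outside and connects to the actin cytoskeleton inside. The beta1 chain pairs with many alpha chains, among them the laminin binders alpha3, alpha6 and alpha7, the collagen binders alpha1, alpha2, alpha10 and alpha11, and the receptors alpha4, alpha5, alpha8 and alpha9 for fibronectin and related proteins. Alphav pairs with beta1, beta3, beta5, beta6 or beta8, and alphav-beta8 binds latent TGF-beta. Laminins are cross-shaped trimers of 1 alpha, 1 beta and 1 gamma chain and form the scaffold of basement membranes. In the embryonic nervous system radial glia hold on to the basement membrane at the surface of the brain through laminin receptors, while fibroblasts use collagen and fibronectin receptors in connective tissue.

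Sense 3′ ends of polyadenylated transcripts were counted, so that a value counts reads at transcript ends, whatever the transcript's length. Levels are in CPM, counts scaled to library size with 1 set of TMM factors over all 14 libraries, and libraries held 1669406 to 3296178 counts. H3f3a stood at 26.3 to 70.9 CPM in KO neurospheres against 1970.0 to 2417 CPM in WT neurospheres, and at 7.29 to 18.8 CPM in KO MEFs against 847 to 1427 CPM in WT MEFs, low in each of the 8 KO libraries and high in each of the 6 WT libraries. The cell type labels were also checked. Of 12 fibroblast markers 12 were lower in neurospheres in both cell type comparisons, and of 11 tested neural stem cell markers 10 were higher and 1, Vim, which is also on the fibroblast list, was lower. Mitochondrially encoded transcripts took 13.8% to 16.1% of counts in KO neurospheres, 12.9% to 16.8% in WT neurospheres, 5.27% to 5.77% in KO MEFs and 5.63% to 6.15% in WT MEFs, and their part in the differences between cell types was not tested. In cultures measured in bulk, fewer cells of a type and less RNA per cell cannot be told apart.

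Of the 36 members, 20 reached a mean of 10 CPM in at least 1 of the 4 groups. The other 16 stayed under that level, and 2 of them, Itgae and Itgax, had no count in any library. Itgae and Itgax encode the leukocyte chains alphaE and alphaX. Also low in all groups were Itgal and Itgb7 of leukocytes and Itga2b of platelets, at most 3.77, 0.755 and 2.45 CPM. The epithelial subunits were low as well: Itgb4, the partner of alpha6 in hemidesmosomes, reached at most 2.88 CPM and Itgb6 had 1 count in all. Lama3 and Lamb3, chains of an epithelial laminin, reached at most 1.46 and 0.972 CPM. Lama1, the alpha chain of early embryonic basement membranes, reached 1.94 CPM and Lamc3 0.486 CPM. Itga10, a collagen receptor of cartilage, reached 2.91 CPM. Of the 36 members 23 passed the filter on low counts in at least 1 comparison, and members that passed through 1 high group had to differ, so that counts of calls below describe those members and are no measure of the family. At this depth 3 counts in a library, the limit that a count of 0 allows, correspond to 0.915 to 1.804 CPM.

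The cell types differed in many subunits and the genotypes in none by test. In KO neurospheres against KO MEFs, 13 of 20 tested members passed an adjusted p of 0.05, 1 higher and 12 lower; over all 11413 genes tested 51.6% passed, 25.4% higher and 26.2% lower. In WT neurospheres against WT MEFs, 9 of 18 tested members passed, 2 higher and 7 lower, while over all 11080 genes 41.6% passed, 20.8% higher and 20.8% lower. Most of the called members lay on the lower side. The median log2 difference of the tested members was -1.64 in the KO lines and -0.80 in the WT lines, and that of all genes tested -0.01 and 0.02. In earlier work on these data KO neurospheres 3, WT neurospheres 2, KO MEFs 3 and WT MEFs 2 stood apart from the other lines of their cell type; without them 18 members were called in KO lines and 10 in WT lines. Called the same way in both comparisons, which share no library, were 8 members: Itgb8 higher, and Itga8, Itga11, Itgb1, Itgb5, Lama4, Lamb1 and Lamc1 lower. Of the 17 members tested in both, 16 had the same sign (94.1%) and these 8 were 47.1%. Of all 10859 genes tested in both, 88.9% had the same sign and 37.2% were called the same way. By family, the integrin alpha genes gave 0 higher and 5 lower of 10 tested in KO lines, and 1 higher and 2 lower of 9 in WT lines. The integrin beta genes gave 1 higher and 3 lower of 4 in KO lines, and 1 higher and 2 lower of 3 in WT lines. Laminin genes gave 4 lower of 6 tested in KO lines and 3 lower of 6 in WT lines, with none higher in either. The plots of CPM by library and of the log2 differences between cell types show these members.

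**Figure D1:**
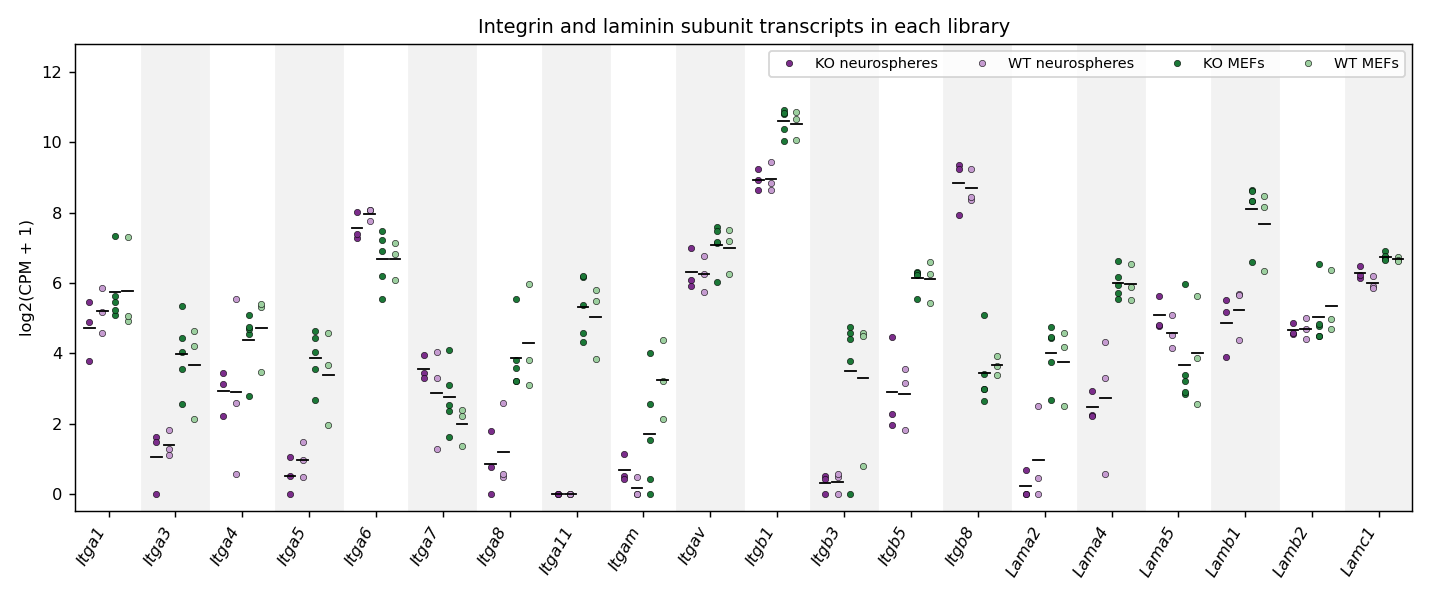
Level of the 20 members with a mean of at least 10 CPM in a group, as log2(CPM + 1) on the y axis, with 1 point per library (3 KO neurospheres, 3 WT neurospheres, 5 KO MEFs, 3 WT MEFs) and a bar at the mean of the points. Itgb8 is high in all 6 neurosphere libraries, Itga11 is at 0 in all of them, and Itgb1, Lamb1 and Itgb5 are lower in each neurosphere library than in each MEF library.

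**Figure D2:**
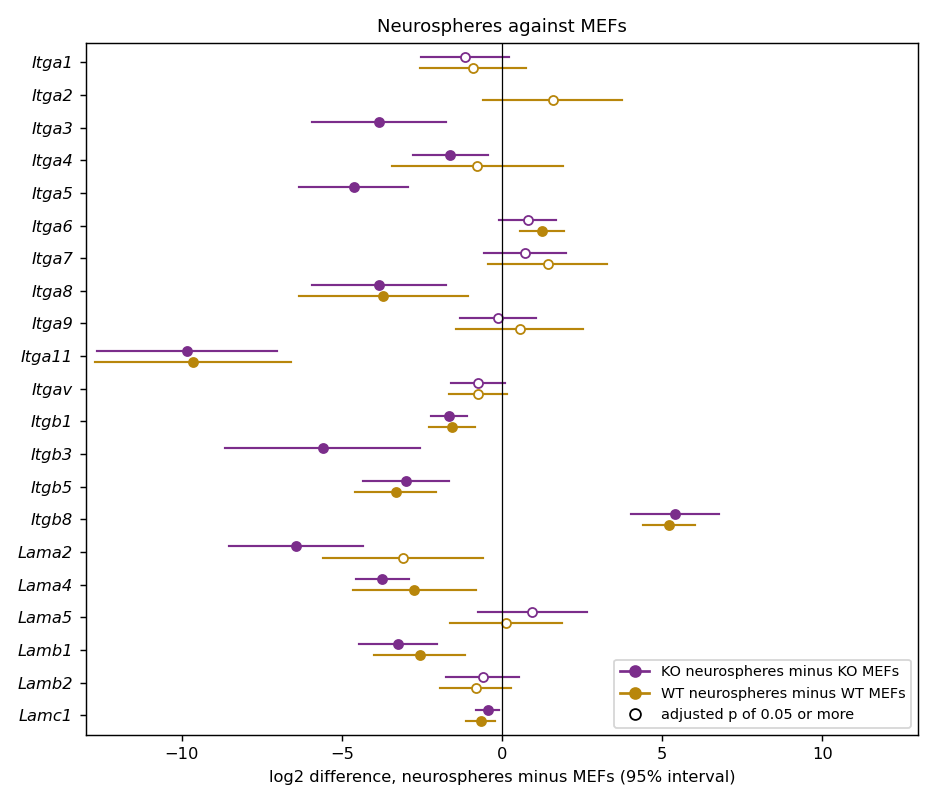
Log2 difference, neurospheres minus MEFs, with the 95% interval of the edgeR fit, for each member tested in KO lines (purple) or WT lines (gold); filled points passed an adjusted p of 0.05. Itgb8 lies near 5 to the right in both, most called members lie to the left, and the fitted value of Itga11, which had no count in neurospheres, depends on the prior count of the fit and is no bound.

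Of the integrin beta genes, Itgb8 was higher in neurospheres than in MEFs in both genotypes. Itgb8 had 649.9, 604 and 244 CPM in KO neurospheres and 604, 328 and 351 CPM in WT neurospheres. In MEFs Itgb8 had 9.67, 6.85, 33.03, 6.94 and 5.28 CPM in KO MEFs and 14.3, 11.5 and 9.45 CPM in WT MEFs. All 6 neurosphere libraries lay above all 8 MEF libraries, the lowest neurosphere library at 244 CPM and the highest MEF library at 33.03 CPM. For Itgb8 the log2 difference was 5.39 ± 0.61 (edgeR adjusted p = 0.000105) in KO lines and 5.21 ± 0.35 (edgeR adjusted p = 8.54e-05) in WT lines, each ± the standard error. These are 42.02-fold and 37.00-fold higher levels, with 95% intervals of 16.2 to 109 and 21.2 to 64.7. Itgb8 encodes the beta8 chain, which pairs with alphav and is known in the brain for the activation of latent TGF-beta.

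The other beta genes with at least 10 CPM in a group, Itgb1, Itgb5 and Itgb3, had lower levels in neurospheres. Itgb1 had 483, 396 and 605 CPM in KO neurospheres and 396, 455 and 689 CPM in WT neurospheres. In MEFs Itgb1 had 1335, 1789, 1058, 1932 and 1832 CPM in KO MEFs and 1879.6, 1079 and 1614 CPM in WT MEFs. Itgb1 encodes the common partner of most alpha chains, and its groups did not overlap between cell types. For Itgb1 the log2 difference was -1.66 ± 0.25 (edgeR adjusted p = 0.000465) in KO lines and -1.55 ± 0.31 (edgeR adjusted p = 0.00597) in WT lines, so that neurospheres had 0.316 and 0.342 of the MEF level. Itgb5 had 2.89, 21.04 and 3.85 CPM in KO neurospheres and 10.7, 7.94 and 2.49 CPM in WT neurospheres. In MEFs Itgb5 had 75.96, 45.6, 79.2, 76.7 and 74.3 CPM in KO MEFs and 75.8, 42.4 and 96.1 CPM in WT MEFs. Itgb5, whose product joins alphav in a vitronectin receptor, showed no overlap between cell types, although KO neurospheres 2 lay well above the other 5 neurosphere libraries. Its log2 difference was -2.99 ± 0.60 (edgeR adjusted p = 0.00252) in KO lines and -3.32 ± 0.55 (edgeR adjusted p = 0.00286) in WT lines; without KO neurospheres 2 the KO value was -4.32. Itgb3 had 0.413, 0 and 0.3501 CPM in KO neurospheres and 0.383, 0.467 and 0 CPM in WT neurospheres. In MEFs Itgb3 had 20.03, 12.7, 0, 26.02 and 22.6 CPM in KO MEFs and 22.6, 0.719 and 21.7 CPM in WT MEFs. Of the 8 MEF libraries 6 held Itgb3, the partner of alphav in a further vitronectin and fibronectin receptor, and KO MEFs 3 and WT MEFs 2 were as low as the neurospheres. With 2 counts in KO neurospheres and 230 in KO MEFs the ratio was 59.5 in favour of KO MEFs (exact 95% counting interval 16.3 to 494.5), and edgeR gave an adjusted p of 0.00692. Between WT lines Itgb3 did not pass the filter on low counts, with 2 counts against 130. Without WT MEFs 2, the lowest WT MEF library, it passed through the MEFs alone and was lower (edgeR adjusted p = 0.000376). A member that passes in this way had to differ, so this call is no further support.

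Of the integrin alpha genes, Itga8 and Itga11 were lower in neurospheres in both comparisons, and Itga3, Itga4 and Itga5 in KO lines. Itga11, a collagen receptor chain of mesenchymal cells, had no count in any of the 6 neurosphere libraries. In MEFs Itga11 had 70.8, 40.8, 18.9, 72.9 and 22.6 CPM in KO MEFs and 43.7, 13.3 and 54.3 CPM in WT MEFs, 633 counts in KO MEFs and 325 in WT MEFs. Set against 3 counts over the group, the level was at least 109-fold lower in KO neurospheres than in KO MEFs and at least 95.5-fold lower in WT neurospheres than in WT MEFs (edgeR adjusted p = 0.000411 and 0.00279). Itga5 had 0.413, 0 and 1.05 CPM in KO neurospheres and 0.383, 0.934 and 1.78 CPM in WT neurospheres. In MEFs Itga5 had 10.7, 23.98, 5.34, 15.3 and 20.8 CPM in KO MEFs and 22.6, 2.88 and 11.6 CPM in WT MEFs. Itga5 encodes the alpha chain of the classical fibronectin receptor, and all neurosphere libraries lay below all MEF libraries. For Itga5 the log2 difference was -4.64 ± 0.76 (edgeR adjusted p = 0.000767) between KO lines, and between WT lines Itga5 did not pass the filter. Without WT MEFs 2 or without WT neurospheres 3 it did and was lower (log2 -3.96 and -4.14, edgeR adjusted p = 0.00227 and 0.0341). It passed there through the MEFs alone and so had to be lower, and these calls are no further support.

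Itga8 had 2.48, 0 and 0.7002 CPM in KO neurospheres and 0.383, 0.467 and 4.98 CPM in WT neurospheres. In MEFs Itga8 had 11.05, 13.02, 45.7, 8.33 and 8.301 CPM in KO MEFs and 7.54, 62.2 and 13.1 CPM in WT MEFs. Itga8, whose product binds nephronectin and fibronectin with beta1, was lower in every neurosphere library than in every MEF library of its genotype. For Itga8 the log2 difference was -3.84 ± 0.93 (edgeR adjusted p = 0.00703) in KO lines and -3.70 ± 1.12 (edgeR adjusted p = 0.0334) in WT lines, but the WT call ended without WT MEFs 2, WT neurospheres 1 or WT neurospheres 2 (log2 -2.33, -3.24 and -3.32, edgeR adjusted p = 0.0761, 0.106 and 0.0948). Itga3 had 2.07, 1.804 and 0 CPM in KO neurospheres and 1.15, 1.401 and 2.49 CPM in WT neurospheres. In MEFs Itga3 had 4.83, 15.4, 39.3, 10.8 and 20.8 CPM in KO MEFs and 17.5, 23.7 and 3.35 CPM in WT MEFs. Itga3 encodes a laminin-binding chain; its KO groups did not overlap, and WT MEFs 3 lay close to the neurospheres. The log2 difference between KO lines was -3.84 ± 0.93 (edgeR adjusted p = 0.00676), and between WT lines Itga3 did not pass the filter. Without WT MEFs 3 or WT neurospheres 3 it was tested and lower (log2 -3.55 and -3.46, edgeR adjusted p = 0.00416 and 0.0380). As with Itga5, it passed there through the MEFs alone, so these calls are no further support.

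Itga4 had 9.92, 3.61 and 7.703 CPM in KO neurospheres and 4.98, 0.467 and 45.9 CPM in WT neurospheres. In MEFs Itga4 had 22.4, 25.01, 5.83, 25.7 and 32.8 CPM in KO MEFs and 38.9, 10.1 and 41.2 CPM in WT MEFs. Itga4, whose product binds fibronectin and VCAM1, overlapped between cell types in both genotypes, and WT neurospheres 3 had the highest value of all 14 libraries. Its log2 difference was -1.61 ± 0.52 (edgeR adjusted p = 0.0267) in KO lines and -0.77 ± 1.14 (edgeR adjusted p = 0.613) in WT lines. The KO call ended without KO MEFs 2, 4 or 5 or KO neurospheres 2 or 3 (edgeR adjusted p = 0.0521, 0.0526, 0.0582, 0.0883 and 0.0574, log2 -1.66 to -1.33). Without WT neurospheres 3 the WT difference was -3.36 (edgeR adjusted p = 0.0431).

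Itga6, which encodes the laminin-binding chain alpha6 and marks neural stem cells, was the alpha gene that was higher in neurospheres by test; it did not pass in KO lines and passed in WT lines. Itga6 had 155, 168 and 258 CPM in KO neurospheres and 268, 214 and 267 CPM in WT neurospheres. In MEFs Itga6 had 72.2, 178, 45.7, 118 and 149 CPM in KO MEFs and 140.5, 67.3 and 113 CPM in WT MEFs. All WT neurospheres lay above all WT MEFs, whereas KO neurospheres 1 and 2 lay within the range of KO MEFs. For Itga6 the log2 difference was 0.80 ± 0.39 (edgeR adjusted p = 0.117) in KO lines and 1.25 ± 0.29 (edgeR adjusted p = 0.0111) in WT lines. The difference between those values, tested as the interaction of genotype and cell type, was -0.45 ± 0.56 on the log2 scale (edgeR adjusted p = 1.00), so a difference between genotypes was not shown.

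Of the alpha genes, tested and not called in either comparison were Itga1, Itga7, Itga9 and Itgav, besides Itga2, tested in WT lines alone. Itgav had 66.5, 58.9 and 126 CPM in KO neurospheres and 52.8, 74.7 and 108 CPM in WT neurospheres. In MEFs Itgav had 141, 143, 63.6, 193 and 178 CPM in KO MEFs and 182, 75.2 and 145 CPM in WT MEFs. Itgav, the common partner of beta3, beta5 and beta8, had log2 differences of -0.75 ± 0.37 in KO lines and -0.75 ± 0.39 in WT lines (95% intervals -1.59 to 0.08 and -1.65 to 0.15). It passed without KO MEFs 3, KO neurospheres 3 or WT MEFs 2 (log2 -0.92, -1.17 and -1.06, edgeR adjusted p = 0.0175, 0.0316 and 0.0265), libraries of which both MEF lines were the lowest of their groups. Itga1 had 28.9, 12.6 and 43.1 CPM in KO neurospheres and 22.98, 35.04 and 57.2 CPM in WT neurospheres. In MEFs Itga1 had 42.8, 48.3, 161, 33.3 and 36.6 CPM in KO MEFs and 28.97, 159 and 32.6 CPM in WT MEFs. Itga1, a collagen and laminin receptor chain, was high in KO MEFs 3 and WT MEFs 2 and overlapped between cell types. In KO lines it was called lower without KO MEFs 3 and KO neurospheres 3 together (log2 -0.94, edgeR adjusted p = 0.0254). The replicate block also gave a lower call there (log2 -1.45, edgeR adjusted p = 0.0396). In WT lines its log2 difference was -0.91, and 0.32 without WT MEFs 2. Itga7 had 9.92, 14.4 and 8.75 CPM in KO neurospheres and 15.3, 8.88 and 1.42 CPM in WT neurospheres. In MEFs Itga7 had 2.07, 4.797, 16.03, 4.16 and 7.55 CPM in KO MEFs and 1.59, 3.596 and 4.27 CPM in WT MEFs. Itga7, a laminin receptor chain known from muscle, had log2 differences of 0.71 ± 0.57 in KO lines and 1.42 ± 0.80 in WT lines, and passed without KO MEFs 3 or WT neurospheres 3 (log2 1.27 and 1.94, edgeR adjusted p = 0.0375 and 0.0414). Itga9, a receptor chain for tenascin and other ligands, ranged over 3.01 to 10.9 CPM in KO neurospheres, 1.15 to 13.1 in WT neurospheres, 2.91 to 11.7 in KO MEFs and 1.44 to 6.71 in WT MEFs. Itga2, a collagen receptor chain, ranged over 0.413 to 20.4 CPM in KO neurospheres and 3.74 to 10.3 in WT neurospheres. In MEFs its range was 1.38 to 3.82 CPM in KO MEFs and 0 to 5.16 in WT MEFs. KO neurospheres 1 was the lowest of the neurospheres, and without it Itga2 passed the filter in KO lines. It was then higher (log2 2.15, edgeR adjusted p = 0.0465), with 34 and 7 counts left in KO neurospheres. As the library left out was the lowest, this call is no support for a difference.

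Of the laminin genes, Lamb1, Lama4 and Lamc1 were lower in neurospheres in both comparisons, and Lama2 in KO lines. Lamb1 had 35.1, 13.8 and 44.8 CPM in KO neurospheres and 50.6, 19.6 and 49.4 CPM in WT neurospheres. In MEFs Lamb1 had 321, 324, 95.2, 401 and 395 CPM in KO MEFs and 355, 80.6 and 288 CPM in WT MEFs. Lamb1 encodes the beta1 chain of many laminins, and no neurosphere library reached the lowest MEF library. For Lamb1 the log2 difference was -3.26 ± 0.54 (edgeR adjusted p = 0.000965) in KO lines and -2.57 ± 0.60 (edgeR adjusted p = 0.013) in WT lines. Lama4 had 3.72, 3.61 and 6.65 CPM in KO neurospheres and 8.81, 0.467 and 18.8 CPM in WT neurospheres. In MEFs Lama4 had 97.02, 71.6, 51.5, 60.02 and 45.3 CPM in KO MEFs and 44.4, 58.3 and 91.5 CPM in WT MEFs. Lama4, the alpha chain of mesenchymal and vascular laminins, did not overlap between cell types, and within WT neurospheres it spread widely. For Lama4 the log2 difference was -3.74 ± 0.37 (edgeR adjusted p = 3.7e-05) in KO lines and -2.73 ± 0.82 (edgeR adjusted p = 0.0321) in WT lines; the WT call ended without WT MEFs 1, WT MEFs 3 or WT neurospheres 1 (log2 -2.96, -2.41 and -2.69, edgeR adjusted p = 0.0548, 0.0963 and 0.105).

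Lama2 had 0, 0.601 and 0 CPM in KO neurospheres and 4.596, 0 and 0.356 CPM in WT neurospheres. In MEFs Lama2 had 25.9, 20.6, 5.34, 21.2 and 12.5 CPM in KO MEFs and 23.02, 4.68 and 17.1 CPM in WT MEFs. Lama2 encodes the alpha2 chain, the laminin of muscle and peripheral nerve, and WT neurospheres 1 held nearly all of its WT neurosphere counts. With 1 count in KO neurospheres and 240 in KO MEFs, the ratio was 124 in favour of KO MEFs (exact 95% counting interval 22.1 to 4928), and edgeR gave an adjusted p of 0.000369. In WT lines the log2 difference was -3.08 ± 1.06 (edgeR adjusted p = 0.052), which missed the threshold although the groups did not overlap. It passed without WT neurospheres 1 or WT MEFs 2 (log2 -5.92 and -3.53, edgeR adjusted p = 0.0141 and 0.0230).

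Lamc1 had 70.2, 73.3 and 87.9 CPM in KO neurospheres and 58.98, 56.99 and 72.5 CPM in WT neurospheres. In MEFs Lamc1 had 105, 119, 109, 102 and 99.2 CPM in KO MEFs and 106, 100.3 and 97.6 CPM in WT MEFs. Lamc1 encodes the gamma1 chain shared by most laminins. For Lamc1 the log2 difference was -0.45 ± 0.16 (edgeR adjusted p = 0.0361) in KO lines and -0.67 ± 0.20 (edgeR adjusted p = 0.0296) in WT lines. The KO call ended without any 1 library other than KO neurospheres 3 (edgeR adjusted p up to 0.125, log2 -0.47 to -0.38), and the WT call without WT MEFs 1 or 3 or WT neurospheres 1 or 2 (edgeR adjusted p up to 0.0920, log2 -0.70 to -0.61). Lama5 had 26.4, 27.1 and 48.7 CPM in KO neurospheres and 16.9, 21.96 and 33.1 CPM in WT neurospheres. In MEFs Lama5 had 6.21, 6.51, 61.2, 8.33 and 9.43 CPM in KO MEFs and 13.49, 48.6 and 4.88 CPM in WT MEFs. Lama5 encodes the widespread alpha5 chain, and among MEFs it was high in KO MEFs 3 and WT MEFs 2. Lamb2 had 28.1, 22.2 and 22.8 CPM in KO neurospheres and 24.9, 30.8 and 20.3 CPM in WT neurospheres. In MEFs Lamb2 had 26.2, 21.6, 92.3, 27.8 and 21.5 CPM in KO MEFs and 30.2, 81.6 and 24.7 CPM in WT MEFs. Lamb2, for the beta2 chain of synapses and kidney filters, was high in the same MEF lines, and both genes overlapped between cell types. Their log2 differences were 0.95 ± 0.76 and -0.60 ± 0.51 in KO lines and 0.14 ± 0.74 and -0.82 ± 0.47 in WT lines, with no call. Without KO MEFs 3 Lama5 was higher in KO neurospheres than in KO MEFs (log2 2.20, edgeR adjusted p = 0.00025).

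The promoter sequences of 4 members called the same way in both cell type comparisons are shown, because they stand at the start of 1 gene that was higher in neurospheres and 3 that were lower. They are RefSeq sequences of GRCm38.p6, 300 bases each, 5′ to 3′ on the strand of the gene, running 250 bases before to 50 after the annotated start; 23 of the 36 members had such an entry. Capitals mark matches to the GC box GGGCGG or the TEAD site GGAATG on either strand.
Itgb8: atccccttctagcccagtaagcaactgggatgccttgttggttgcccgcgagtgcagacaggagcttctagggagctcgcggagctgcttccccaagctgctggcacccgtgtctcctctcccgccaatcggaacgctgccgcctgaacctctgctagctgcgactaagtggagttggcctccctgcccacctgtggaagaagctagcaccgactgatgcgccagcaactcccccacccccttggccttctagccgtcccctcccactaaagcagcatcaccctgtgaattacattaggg
Itga11: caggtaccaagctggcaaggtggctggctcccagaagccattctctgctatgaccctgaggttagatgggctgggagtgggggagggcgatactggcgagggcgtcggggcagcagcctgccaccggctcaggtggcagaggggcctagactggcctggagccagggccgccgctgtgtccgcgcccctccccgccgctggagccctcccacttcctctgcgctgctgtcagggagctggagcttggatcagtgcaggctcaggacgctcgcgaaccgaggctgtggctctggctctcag
Itgb1: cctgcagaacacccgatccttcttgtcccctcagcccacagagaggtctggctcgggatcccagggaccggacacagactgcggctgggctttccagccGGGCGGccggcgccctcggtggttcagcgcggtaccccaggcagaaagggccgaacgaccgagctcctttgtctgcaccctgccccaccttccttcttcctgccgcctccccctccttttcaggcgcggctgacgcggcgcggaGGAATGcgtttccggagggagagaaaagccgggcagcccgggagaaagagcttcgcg
Lamb1: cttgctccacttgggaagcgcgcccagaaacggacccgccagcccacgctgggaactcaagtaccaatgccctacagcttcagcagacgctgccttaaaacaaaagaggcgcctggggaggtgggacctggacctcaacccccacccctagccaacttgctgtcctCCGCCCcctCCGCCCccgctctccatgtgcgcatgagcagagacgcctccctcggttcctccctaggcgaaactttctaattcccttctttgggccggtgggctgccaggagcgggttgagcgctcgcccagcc
The windows are chr12:119238227-119238526 on the minus strand for Itgb8, chr9:62677605-62677904 on the plus strand for Itga11, chr8:128685404-128685703 on the plus strand for Itgb1 and chr12:31265043-31265342 on the plus strand for Lamb1. The share of G and C was 60.7%, 68%, 67.3% and 63.7% in that order. Itgb1 held 1 GC box and 1 TEAD site, Lamb1 held 2 GC boxes, and Itgb8 and Itga11 held neither motif. On both strands GGGCGG was found in 11 of the 23 members' promoters and in 35.66% of the 32851 promoters of the table. GGAATG was found in 3 of 23 against 14.66% of all promoters, the AP-1 site TGANTCA in 3 of 23 against 7.808%, and the TATA box TATAAA in 0 of 23 against 13.62%. Of the 9 promoters of members lower in neurospheres in either comparison, 7 held GGGCGG, 1 GGAATG, 1 TGANTCA and 0 TATAAA. These 9 were picked by their calls in these data, and enrichment was not tested. None of the 4 motifs contains another. A match is a description of the letters, not of a bound site.

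Reads of Itga6 were divided differently among its annotated transcripts in the cell types. Itga6 lies on chromosome 2 of GRCm38, on the plus strand, from 71745616 to 71858416. Most of its reads, 57.8% to 81.6% in each library, were assigned to Itga6-203, a non-coding transcript model from 71849029 to 71858416 at the 3′ end of the gene. Transcript model Itga6-205 runs from 71849437 to 71852635 and so ends before the stop codons of Itga6-201 and Itga6-207 at 71853639 to 71853641 and of Itga6-202 at 71856013 to 71856015. It took 3.99, 1.64 and 1.09% of Itga6 reads in KO neurospheres and 2.44, 2.81 and 2.38% in WT neurospheres. In MEFs it took 25.4, 11.2, 22.3, 26.4 and 26.8% in KO lines and 24.6, 7.49 and 22.3% in WT lines. The shares did not overlap between cell types and overlapped between genotypes within each. They rest on 94 to 752 Itga6 reads per library, and since the transcript was picked after its values were seen, no test is given. Salmon divided reads among overlapping transcripts, so the shares are estimates.

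**Figure D3:**
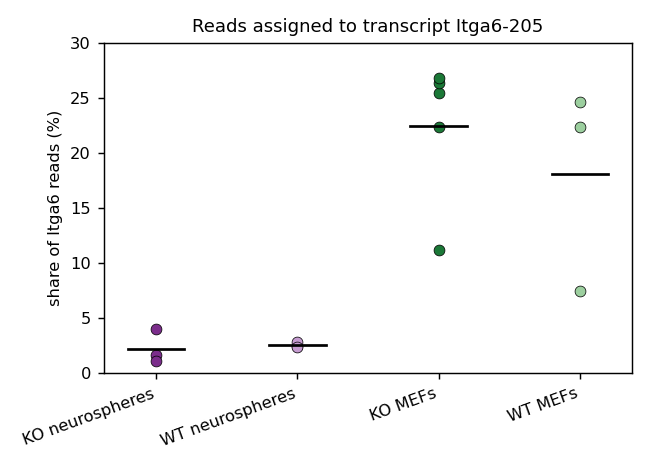
Share of all Itga6 reads, in percent, that were assigned to transcript Itga6-205 in each library, with 1 point per library and a bar at the group mean. The 6 neurosphere libraries lie between 1.09% and 3.99%, the 8 MEF libraries between 7.49% and 26.8%.

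The question of the study design, KO against WT, was asked in each cell type. No member passed in KO against WT MEFs (0 of 22 tested) or in KO against WT neurospheres (0 of 15), by edgeR or by DESeq2, and 0 members had an unadjusted edgeR p under 0.05. Over all genes 0.00927% passed in MEFs and 0.00941% in neurospheres, which is 1 gene in each, H3f3a itself. The interaction gave 0 of 23 members and 0% of all genes. The KO and WT libraries overlapped in each tested member of both cell types, while over all genes 1.85% in MEFs and 7.2% in neurospheres did not overlap. The median log2 difference of the tested members was 0.06 in MEFs and -0.01 in neurospheres, and that of all genes -0.0013 and 0.01.

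The members with the smallest unadjusted p are given for their size, with edgeR adjusted p of 1.00 in MEFs, 0.999 in neurospheres and 1.00 in the interaction. In MEFs these were Itga7 (1.08 ± 0.67), Itga9 (0.66 ± 0.56), Itgam (-1.20 ± 1.08), Itga8 (-0.70 ± 0.81) and Itga4 (-0.42 ± 0.54), as log2 KO minus WT with the standard error. Of 12 leukocyte markers tested in the same fit none passed, 0 had a positive log2 value and the median was -1.18; their part in the value of Itgam was not tested. In neurospheres they were Lama5 (0.53 ± 0.38), Lamc1 (0.31 ± 0.23), Itga6 (-0.35 ± 0.26), Lama4 (-0.98 ± 0.92) and Itga4 (-1.26 ± 1.24). The value of Itga8 in MEFs was 0.70 without WT MEFs 2, and without WT neurospheres 3 the values in neurospheres were 0.014 for Lama4 and 1.35 for Itga4. In the interaction, the KO effect in neurospheres minus that in MEFs, they were Lama2 (-3.35 ± 1.78), Itgam (3.05 ± 2.37), Lama4 (-1.01 ± 0.89), Lamc1 (0.22 ± 0.21) and Itga5 (-1.17 ± 1.28). Itgb2 averaged under 5 CPM in every group and was left out by this rule. Its log2 values were -1.17 ± 0.85 in MEFs and 3.95 ± 2.36 in the interaction (edgeR unadjusted p = 0.202 and 0.121). Several of these interaction values rest on few counts. WT and KO neurospheres held 0 and 2 counts of Itgb2, 1 and 4 of Itgam, 13 and 1 of Lama2 and 8 and 4 of Itga5. With no count in WT neurospheres, the interaction value of Itgb2 depends on the prior count of the fit.

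How large a difference the data allow depends on the member. For Itgb1 the 95% interval of log2 KO minus WT ran from -0.70 to 0.62 in neurospheres and from -0.48 to 0.59 in MEFs. For Lamc1 it ran from -0.21 to 0.83 in neurospheres and from -0.20 to 0.34 in MEFs. For Itgb8 in neurospheres it ran from -0.68 to 1.14, and for Lamb1 and Lama5 in MEFs from -0.91 to 1.61 and -2.59 to 1.97. Wide intervals were those of Itga4 in neurospheres (-4.24 to 1.72), where WT lines ran from 0.467 to 45.9 CPM, and of Itgb3 in MEFs (-2.29 to 2.55), where KO lines ran from 0 to 26.02 CPM. These intervals hold 0, which does not show that KO and WT lines have equal levels. The plot of KO minus WT differences shows the same for each tested member.

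**Figure D4:**
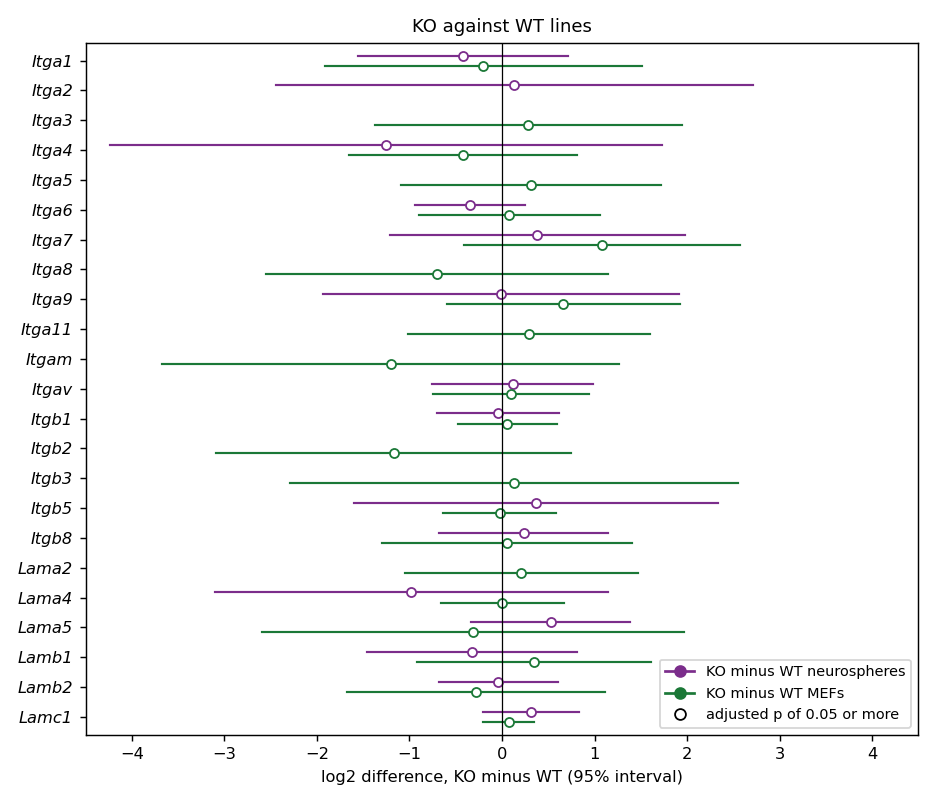
Log2 difference, KO minus WT, with the 95% interval of the edgeR fit, for each member tested in neurospheres (purple) or MEFs (green); open points did not pass an adjusted p of 0.05. All intervals include 0, and those of Itgb1 and Lamc1 are among the narrow ones, while Itga4 in neurospheres and Itgam in MEFs have wide ones.

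Within MEFs, KO MEFs 3 and WT MEFs 2, known from earlier work on these data to stand apart, lay together beyond the other 6 MEF lines in 15 of the 22 tested members (68.2%). Over all 10785 genes tested in MEFs this was so for 38.3%, with 18.1% above and 20.3% below. The pair was picked from the data, so these counts are a description. Above the other 6 lines were 5 members: Itga1, Itga3, Itga8, Lama5 and Lamb2. Below them were 10: Itga4, Itga5, Itga6, Itga9, Itga11, Itgav, Itgb1, Itgb3, Lama2 and Lamb1. The other 7 tested members (Itga7, Itgam, Itgb2, Itgb5, Itgb8, Lama4 and Lamc1) did not place both lines beyond the rest.

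Lamb1 and Lamb2, which encode alternative beta chains, lay on opposite sides in these lines. Lamb1 had 95.2 CPM in KO MEFs 3 and 80.6 CPM in WT MEFs 2, against 288 to 401 CPM in the other 6 MEF lines. Lamb2 had 92.3 CPM in KO MEFs 3 and 81.6 CPM in WT MEFs 2, against 21.5 to 30.2 CPM in the other 6 MEF lines. Of the laminin alpha genes, Lama4 did not separate the pair, and Lama2 and Lama5 lay on opposite sides. Lama2 had 5.34 CPM in KO MEFs 3 and 4.68 CPM in WT MEFs 2, against 12.5 to 25.9 CPM in the other 6 MEF lines. Lama5 had 61.2 CPM in KO MEFs 3 and 48.6 CPM in WT MEFs 2, against 4.88 to 13.49 CPM in the other 6 MEF lines. The pair was thus low in Lamb1 and Lama2 and high in Lamb2 and Lama5. Among the integrins Itga1 had 161 CPM in KO MEFs 3 and 159 CPM in WT MEFs 2, against 28.97 to 48.3 CPM in the other 6 MEF lines. Itga8 had 45.7 CPM in KO MEFs 3 and 62.2 CPM in WT MEFs 2, against 7.54 to 13.1 CPM in the other 6 MEF lines. These are receptor chains for collagen and for nephronectin, and both were high in the pair. Itgb3 had 0 CPM in KO MEFs 3 and 0.719 CPM in WT MEFs 2, against 12.7 to 26.02 CPM in the other 6 MEF lines. Itgav had 63.6 CPM in KO MEFs 3 and 75.2 CPM in WT MEFs 2, against 141 to 193 CPM in the other 6 MEF lines. Transcripts of both chains of alphav-beta3 were thus low in the pair. Itgb1 had 1058 CPM in KO MEFs 3 and 1079 CPM in WT MEFs 2, against 1335 to 1932 CPM in the other 6 MEF lines, a smaller distance.

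Of the markers of other cell types, some lists lay below the other 6 lines in both lines of the pair and others did not. The summed level of 10 endothelial markers, of which Cldn5 and Tie1 were at 0 in all MEFs, was 45.7 CPM in KO MEFs 3 and 59.7 CPM in WT MEFs 2, against 190.5 to 511 CPM in the other 6 lines. Most of this sum was 1 gene, Flt1, at 34.5 CPM in KO MEFs 3 and 50.4 CPM in WT MEFs 2. In the other 6 lines Flt1 had 166 to 474 CPM. Kdr and Pecam1 also lay below the other 6 lines in both, and Egfl7 did not. Cdh5, Tek, Esam and Emcn had at most 4.51 CPM in MEFs. That of 8 Schwann cell and neural crest markers was 12.6 CPM in KO MEFs 3 and 12.6 CPM in WT MEFs 2, against 25.3 to 53.8 CPM in the other 6 lines. For 10 skeletal muscle markers, of which Myod1 and Myf5 were at 0 in all MEFs, it was 18.9 CPM in KO MEFs 3 and 11.5 CPM in WT MEFs 2, against 22.3 to 80.8 CPM in the other 6 lines. The 12 fibroblast markers summed to 26999.6 CPM in KO MEFs 3 and 21876 CPM in WT MEFs 2, against 19326 to 26205 CPM in the other 6 lines. Leukocyte markers summed to 31.1 CPM in KO MEFs 3 and 300.7 CPM in WT MEFs 2, against 29.5 to 179.9 CPM in the other 6 lines. Epithelial markers summed to 5.83 and 6.47 CPM in that order, against 5.52 to 19.4 CPM. Megakaryocyte and platelet markers summed to 66.1 and 47.8 CPM, against 32.9 to 61.5 CPM. Sums of neuron and neural stem cell markers did not place both lines beyond the rest either. The part of these cell types in the separation of the lines was not tested.

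**Figure D5:**
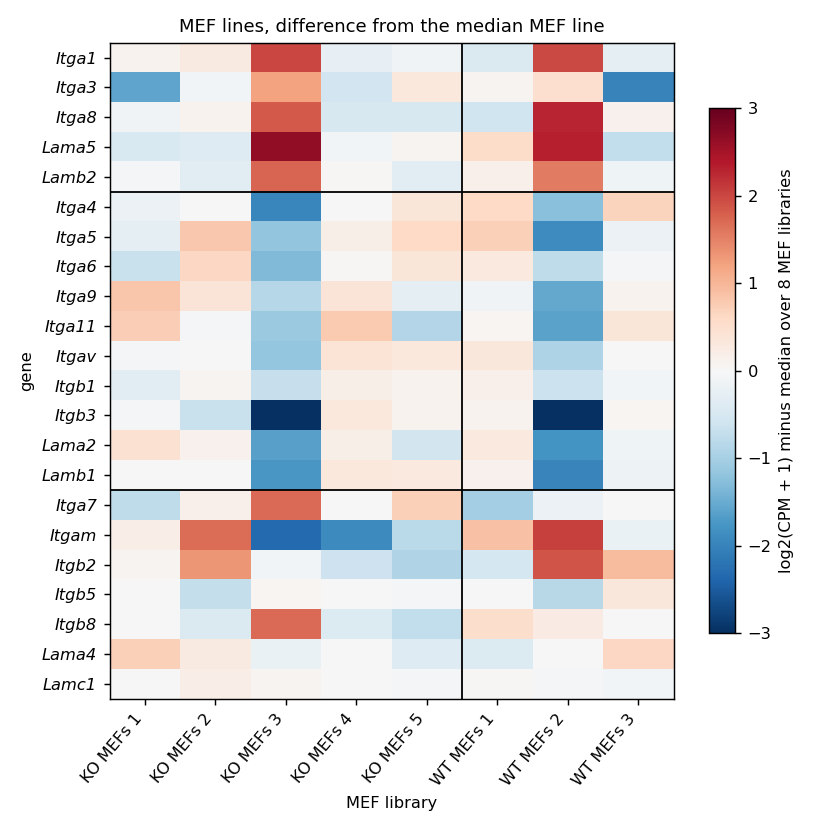
Each tested member in each MEF library as log2(CPM + 1) minus the median over the 8 MEF libraries, on a colour scale that ends at 3 on either side; 5 KO libraries stand left of the 3 WT libraries. The horizontal lines separate the 5 members in which KO MEFs 3 and WT MEFs 2 both lie above the other 6 lines, the 10 in which both lie below, and the other 7.

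Subunits of leukocyte integrins were present at low levels and unevenly among MEF lines. Itgam, the alpha chain of the complement receptor of macrophages, had 4.83, 15.1, 0, 0.347 and 1.89 CPM in KO MEFs and 8.33, 19.8 and 3.35 CPM in WT MEFs, with at most 1.202 CPM in neurospheres. Itgb2, its partner, had 1.73, 5.48, 1.46, 0.694 and 0.377 CPM in KO MEFs and 0.794, 8.63 and 3.96 CPM in WT MEFs, with at most 0.413 CPM in neurospheres. KO MEFs 2 and WT MEFs 2 were the highest of their groups in both. The summed level of 14 leukocyte markers, all 14 of which had counts in MEFs, ran from 0.601 to 2.89 CPM in KO neurospheres, 2.49 to 3.27 in WT neurospheres, 29.5 to 179.9 in KO MEFs and 113 to 301 in WT MEFs. KO MEFs 2 and WT MEFs 2 also had the highest marker sums of their groups, and the part of such cells in the values was not tested. Neither gene passed the filter in WT neurospheres against WT MEFs with all libraries. Itgam was tested and lower there without WT MEFs 3 or without any 1 WT neurosphere library (edgeR adjusted p = 0.00538 to 0.0253), and Itgb2 without WT MEFs 1 (edgeR adjusted p = 0.0197). Both passed through the MEFs alone and so had to be lower. With 1 count in WT neurospheres and 87 in WT MEFs the ratio for Itgam was 76.7 in favour of WT MEFs (exact 95% counting interval 13.4 to 3064).

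Partners of the subunits were read from 4 further lists, whose counts stand against 25.4% higher and 26.2% lower of all genes tested in KO lines, and 20.8% higher and 20.8% lower in WT lines. Of 30 genes for proteins that link integrins to actin or activate them, 1 was higher and 16 lower of 26 tested in KO neurospheres against KO MEFs, and 0 higher and 16 lower of 26 in WT neurospheres against WT MEFs. Actn1 and Flna, which encode the actin crosslinkers alpha-actinin 1 and filamin A, and Tln1, which encodes talin, the adaptor on the beta chain's tail, were lower in both. The median log2 difference of the tested genes was -1.66 in KO lines and -1.61 in WT lines. Those of Actn1, Flna and Tln1 were -6.31, -3.65 and -2.33 in KO lines and -5.77, -3.77 and -1.82 in WT lines. The gene called higher, in KO lines, was Parvb (log2 1.47), for beta-parvin of the complex with integrin-linked kinase.

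Of 21 genes for other basement membrane proteins, 2 were higher and 9 lower of 16 tested in KO lines, and 3 were higher and 9 lower of 15 in WT lines. The median log2 difference was -2.42 in KO lines and -3.13 in WT lines. Col4a2 and Hspg2, for a collagen IV chain and perlecan, were lower, with log2 differences of -5.19 and -4.29 in KO lines and -4.20 and -4.15 in WT lines. Agrn, for the laminin-binding proteoglycan agrin, stood at 82.6 to 135 CPM in KO neurospheres, 169 to 219.8 in WT neurospheres, 13.6 to 28.8 in KO MEFs and 14.3 to 31.6 in WT MEFs. Agrn and Smoc1 were higher in neurospheres in both comparisons (log2 2.66 and 4.93 in KO lines, 3.01 and 4.01 in WT lines). Fras1, for a protein of embryonic basement membranes, had a log2 difference of -0.93 in KO lines, where it was not called (edgeR adjusted p = 0.212), and of 4.19 in WT lines, where it was. Fras1 stood at 0.601 to 3.501 CPM in KO neurospheres, 12.6 to 94.9 in WT neurospheres, 2.64 to 8.67 in KO MEFs and 1.98 to 3.35 in WT MEFs. KO and WT neurospheres did not overlap in Fras1, which was so for 7.2% of all genes tested, and neither that difference (edgeR adjusted p = 0.999) nor the interaction (edgeR adjusted p = 1.00) passed.

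Of 18 genes for laminin receptors other than integrins, 4 were higher and 6 lower of 17 tested in KO lines, and 4 were higher and 5 lower of 17 in WT lines, with medians of -0.18 in KO lines and -0.25 in WT lines on the log2 scale; these counts lie near the shares of all genes. Dag1, for dystroglycan, stood at 528 to 938 CPM in KO neurospheres, 787 to 1027 in WT neurospheres, 206 to 454 in KO MEFs and 211 to 375 in WT MEFs, and Dmd, for its partner dystrophin, was higher as well. Their log2 differences were 1.52 and 1.75 in KO lines and 1.73 and 1.86 in WT lines. Sdc1, for the heparan sulfate proteoglycan syndecan 1, was lower (log2 -3.01 and -3.24). Of 22 measured genes for other integrin ligands, 0 were higher and 12 lower of 17 tested in KO lines, and 0 higher and 10 lower of 16 in WT lines, with medians of -4.52 in KO lines and -4.90 in WT lines on the log2 scale. Fn1, for fibronectin, the ligand of alpha5-beta1, stood at 12.4 to 46.2 CPM in KO neurospheres, 18.00 to 36.98 in WT neurospheres, 2786 to 3997 in KO MEFs and 2557 to 3694 in WT MEFs. No gene of these 4 lists passed in KO against WT neurospheres, in KO against WT MEFs or in the interaction by edgeR.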

How the data were processed

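RNA from 14 primary lines was made into QuantSeq 3′ forward libraries, per the labels' protocols. The deposited files give, per transcript, expected counts made by the authors with Salmon 1.1.0, per the submitters' processing notes, which also name edgeR. The deposited TPM, scaled by length and depth, were not used. Trimming, mapping options and build are not stated in the labels. Transcript identifiers were matched to GENCODE M21 (GRCm38): of 116945 per file, 115560 matched with version and 385 without, and the 1000 unmatched held 0.251% to 0.425% of reads and were left out.

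Expected counts were summed per gene and rounded. Each comparison was fitted with edgeR 4.0.16 in R 4.3.3 (TMM, default filter on low counts by group, robust quasi-likelihood test), with Benjamini-Hochberg adjustment over all genes tested and a threshold of 0.05. Standard errors and 95% intervals come from that test and cover the spread between lines; counting intervals and floors do not cover more than counting error, as PCR copies are counted too. A fold against a group with no count used 3 counts over the group. Alternatives were DESeq2 1.42.0, other size factors, no filter or a stricter one (1 CPM in every library of a group), a fit of all 14 libraries together, the replicate number as a block, and libraries left out. The block used only replicate numbers that all groups compared had, and so left out KO MEFs 4 and 5.

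The members, the partner and marker lists and the naming rule were chosen with earlier results of these data known. The rule gives statistics for members called in a cell type comparison and in each KO comparison and the interaction for the 5 members of smallest unadjusted p among those averaging at least 5 CPM; values by library are given for members averaging at least 10 CPM in a group. Of the partner lists up to 4 called genes with the smallest p could be named; Agrn, Smoc1, Fras1, Parvb, Dag1, Dmd and Fn1 were named after their values were seen, as were the Itga6 transcripts. Values of 1 member are not reported here. Reads were counted per annotated gene, so reads of genes that overlap a member on the same strand cannot be separated. Only Itgam had such a gene annotated over its last 2 kb, Gm49368.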

Additional observations from a re-analysis of the deposited data

Results flagged for a closer look

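In KO MEFs, the group of 5 lines, 1 library lay far from the other 4 in 7 of the 20 members examined. The rule marks about 1 in 20 for independent, normally distributed values. CPM values of genes in the same 5 lines are not independent, and KO MEFs 3 was known to stand apart, so that rate is no baseline here. Over all 10106 genes averaging at least 10 CPM in a group, 1 library was outlying for 12.1%, and KO MEFs 3 was the outlying library for 8.35%. Among the 7 members KO MEFs 3 was the outlying library in 6. It was the highest for Itga1 (161 CPM against 33.3 to 48.3 CPM in the other KO MEFs) and Itga8 (45.7 CPM against 8.301 to 13.02 CPM). It was also the highest for Itgb8 (33.03 CPM against 5.28 to 9.67 CPM), Lama5 (61.2 CPM against 6.21 to 9.43 CPM) and Lamb2 (92.3 CPM against 21.5 to 27.8 CPM). It was the lowest for Lamb1 (95.2 CPM against 321 to 401 CPM). KO MEFs 2 was the lowest for Itgb5, at 45.6 CPM against 74.3 to 79.2 CPM.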

How the results depend on the processing

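The counts of 0 members called in KO against WT neurospheres, in KO against WT MEFs and in the interaction were 0 under each of the 13, 15 and 20 alternatives run. In KO neurospheres against KO MEFs the 13 calls became 10 to 18 over the 15 alternatives, 11 to 15 with 1 library left out and 18 without the lines that stood apart in earlier work on these data (KO neurospheres 3 and KO MEFs 3). In WT neurospheres against WT MEFs the 9 calls became 15 with DESeq2 and 15 with all 14 libraries in 1 fit. With 1 library left out they became 8 to 14, with 14 without WT neurospheres 3. Itga3, Itga5, Itgam, Itgb2 and Itgb3, added in both counts of 15, had not passed the filter of the reported fit. Lama2, also added in both, had been tested there. Causes beyond that were not tested. Single calls also ended without a filter (Itga8 and Lama4 in WT lines, Lamc1 in KO lines), with all libraries in 1 fit (Itga4 in KO lines), without the lines that stood apart (Itga8 at -1.91 and Lamc1 at -0.62 in WT lines) and with the replicate block (Itga3, Itga4 and Lamc1 in KO lines, Lamc1 in WT lines). Itgb3 in KO lines was no longer tested with the stricter filter or the replicate block. The block fit also left out KO MEFs 4 and 5, whose numbers no other group has. The parts of the block and of the smaller group in the lost KO calls cannot be told apart. Called under every setting were Itga5, Itga8, Itga11, Itgb1, Itgb5, Itgb8, Lama2, Lama4 and Lamb1 in KO lines, and Itga6, Itga11, Itgb1, Itgb5, Itgb8 and Lamb1 in WT lines. No called member changed sign. Signs of uncalled members did under at least 1 alternative: 10 of 15 tested in KO against WT neurospheres, 16 of 22 in KO against WT MEFs, 14 of 23 in the interaction, and between cell types Itga9 and Lamb2 in KO lines and Itga1, Itga9 and Lama5 in WT lines. Without WT MEFs 2 the KO minus WT values in MEFs were 1.05 for Itga1, 0.98 for Lama5 and 0.46 for Lamb2, against -0.20, -0.31 and -0.28 with it. Among the 5 members named in each KO against WT comparison the sign changed for Itga8 in MEFs (-1.45 to 0.70 with 1 library left out, 0.072 with the replicate block), and in neurospheres for Lama4 (-1.52 to 0.014) and Itga4 (-1.81 to 1.35) with 1 library left out. Deviations of libraries with the same replicate number correlated at -0.54 to 0.18. Libraries with different numbers were not compared in this way, so these values cannot show whether the numbers pair lines. The replicate block gave 10 calls in KO lines and 9 in WT lines between cell types, and 0 for KO against WT in either. Depth limits members near 3 counts a library, where a difference was not detectable.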

Other observations

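Some subunits varied among neurosphere lines of 1 genotype. Itga2, a collagen receptor chain, had 0.413, 20.4 and 2.45 CPM in KO neurospheres and 6.13, 3.74 and 10.3 CPM in WT neurospheres, the second KO line standing above the rest. Itga9 had 5.37, 3.01 and 10.9 CPM in KO neurospheres and 1.15, 13.1 and 6.04 CPM in WT neurospheres.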
